A study of Mus musculus with 16 samples.

Results

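The genes described here make, sense, import, move and export cholesterol. They were chosen by symbol: 4 genes of sterol sensing, 7 enzymes from acetoacetyl-CoA to farnesyl diphosphate, 11 enzymes from squalene to cholesterol, 3 intracellular sterol carriers, 2 esterifying enzymes, 4 efflux transporters and 2 uptake receptors, 33 in all. Of these, 31 were found among the 18194 genes measured; Acat2 and Soat2 were not found by symbol or synonym and were not analysed here. Liver RNA came from male mice of the KK-Ay strain, a model of type 2 diabetes with obesity that is due in part to its yellow agouti allele (Ay). The 2 groups were 8 mice fed an AIN-93G-based diet with 0.1% maple syrup extract (MSE) and 8 mice fed the same diet without it (normal diet). All 16 mice were 11 weeks old, were pair-fed for 43 days and went without food for 16 h before sampling. Each array held RNA of 1 mouse, and all mice were of the diabetic strain, so non-diabetic liver was not analysed here.

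Liver is the main organ that both makes cholesterol and disposes of it. When sterols in the endoplasmic reticulum run low, the escort protein SCAP carries the precursor of SREBP-2 to the Golgi, where proteases release the transcription factor that switches on the synthesis genes; when sterols are plentiful, INSIG proteins hold SCAP back. Oxysterols, in turn, activate the nuclear receptor LXR, which raises the ABC transporters that export cholesterol into plasma lipoproteins and bile. Fasting lowers and feeding raises the activity of SREBPs in liver, and both diets were sampled in the fasted state.

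The deposited values are on a log2-like scale with an unusually small spread: over the 16 arrays, probe sets had a median SD of 4.98e-06. Differences on this scale cannot be read as fold changes of a transcript. Values are therefore given as z values (SDs of that gene over the 16 mice, from their mean), and a difference between diets as MSE minus normal in SDs within diets. Its standard error is 0.5 for every gene when the SD within diets is taken as known. The error of estimating that SD is not included. Hepatocyte markers had high deposited values, with Alb at 14.34, Ttr at 13.94 and Cps1 at 12.95 log2 units. Mean levels of the 31 genes ran from 5.87 for Sqle to 11.54 for Insig2, where array medians were near 6.04. Pmvk, at 6.05, was also near that median. Idi1, Cyp51, Mvd, Srebf2, Lss, Msmo1, Mvk, Fdps and Dhcr7 were not far above it, between 6.29 and 6.77. Whether such low values stand for detected transcripts was not tested. In whole liver, fewer cells of a type and less RNA per cell cannot be told apart. MSE replicate 1 was most often extreme: it was the lowest or highest of 16 in 10 of the 31 genes (32.3%), against 0 to 6 for each other mouse. Over all genes it was so in 20.7%, but normal replicate 1 came close, at 18.8%, followed by MSE replicate 3 at 15.6%. Without MSE replicate 1, the difference between diets turned sign in 3 genes, to 0.32 SD for Scap, 0.18 SD for Npc1 and -0.0887 SD for Hsd17b7. The largest of the other moves without this mouse, in Ebp, Abca1, Fdft1 and Insig1, are given with the gene. In Srebf2, Insig2, Mvd, Cyp51, Dhcr7, Lcat, Abca1, Abcg1 and Lrp1 the sign turned when some other single mouse was left out.

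No cholesterol gene differed between the diets after adjustment over all genes (0 of 31 called by limma with Benjamini-Hochberg adjustment, threshold 0.05). Their adjusted p-values lay between 0.606 and 0.999, and across all genes percent called was 0. At an unadjusted limma p under 0.05, 3 of the 31 (9.68%) stood out, against 6.66% of all genes. Of those 3, the sterol dehydrogenase gene Nsdhl was lower with MSE, where the background is 4.07%, and Sc5d and Tm7sf2 were higher, where it is 2.59%. The means of 15 genes were higher and of 16 lower with MSE, close to the 48.3% higher and 51.7% lower of all genes. The median difference over the 31 genes was -0.0863 SD, beside -0.0227 SD over all genes.

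**Figure D1:**
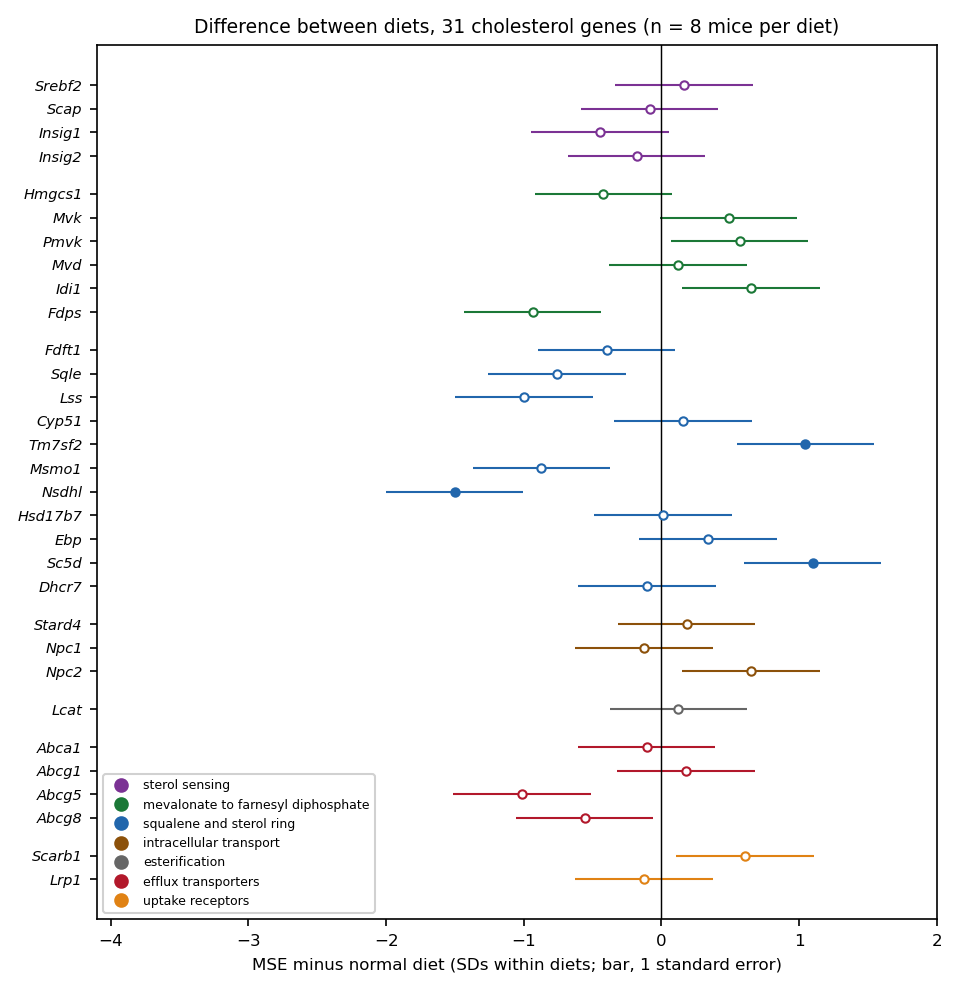
The plot of differences shows MSE minus normal diet in SDs within diets for each of the 31 genes, grouped by role and coloured by it (n = 8 mice per diet). Bars are 1 standard error, 0.5 SD for every gene with the SD within diets taken as known. Filled points have an unadjusted limma p under 0.05. Points lie on both sides of 0 in most roles, between -1.50 for Nsdhl and 1.10 for Sc5d.

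Among the sensors, Srebf2, which encodes the precursor of SREBP-2, differed by 0.16 SD between the diets, and Scap, its escort, by -0.0863 SD. The second probe set of Srebf2 pointed the other way, at -0.75 SD (exact permutation p = 0.158). Insig1, a retention protein that is itself switched on by SREBPs, had the widest spread of the 31 genes. Its z values with MSE were -2.14 at the lowest, 0.165 at the median and 0.835 at the highest, against -1.35, 0.489 and 1.15 on the normal diet. The groups overlapped, and the 2 lowest mice of all, at -2.14 and -1.93, were MSE replicates 1 and 3. The mean difference was -0.45 SD, and the MSE mouse was higher in 23 of the 64 pairs of 1 mouse per diet (limma unadjusted p = 0.372, Benjamini-Hochberg adjusted p = 0.943). Without MSE replicate 1 it was -0.20 SD. Insig2, the isoform that prevails in fasted liver, differed by -0.18 SD. None of these 4 genes passed the unadjusted threshold.

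In the first stage of synthesis, 6 enzymes were measured and none reached an unadjusted p under 0.05; 4 means were higher and 2 lower with MSE. Hmgcs1, the synthase that condenses acetoacetyl-CoA and acetyl-CoA, differed by -0.42 SD. The kinases Mvk and Pmvk, which phosphorylate mevalonate in sequence, differed by 0.49 and 0.57 SD, and the decarboxylase Mvd by 0.12 SD. The dimmer probe set of Mvd pointed the other way, at -0.98 SD (exact permutation p = 0.0692). In Pmvk a single mouse set the width of the normal group: normal replicate 5 lay at -3.07, and the other 7 normal mice between -0.12 and 0.441. Idi1, the isomerase that makes dimethylallyl diphosphate, differed by 0.65 SD, but by -0.18 SD with its dimmer probe set. Fdps, which joins isoprene units into farnesyl diphosphate, averaged lower with MSE.

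Fdps z values with MSE were -1.52 at the lowest, -0.747 at the median and 0.985 at the highest, against -1.19, 0.617 and 1.73 on the normal diet. The groups overlapped over most of their range, and the MSE mouse was the lower one in 47 of 64 pairs. The difference was -0.94 SD, with a limma unadjusted p of 0.0742, a Benjamini-Hochberg adjusted p of 0.790 and an exact permutation p of 0.0834. Its dimmer probe set differed by 0.42 SD and correlated with the first at only 0.0505, so the direction for Fdps rests on 1 of its 2 probe sets.

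The squalene and sterol ring enzymes held all 3 genes that passed the unadjusted threshold, and these went both ways. Nsdhl encodes the dehydrogenase that works with Msmo1 and Hsd17b7 to strip the methyl groups at carbon 4 of the sterol ring. Nsdhl z values with MSE were -1.39 at the lowest, -0.743 at the median and 0.372 at the highest, against -0.791, 0.764 and 2.19 on the normal diet. Only normal replicates 1 and 2 lay below 0 on the normal diet, and only MSE replicates 5 and 6 above 0 with MSE, so the groups overlapped at their edges. The difference was -1.50 SD, with the MSE mouse lower in 57 of 64 pairs (limma unadjusted p = 0.00928, Benjamini-Hochberg adjusted p = 0.606, two-sided exact permutation p = 0.0103). It stayed between -1.94 and -1.37 SD, with an unadjusted limma p under 0.05, whichever of the 16 mice was left out, but the sign turned to 0.274 SD after centring each array on its median and to 0.0707 SD after quantile normalization. Array medians differed between the diets by -1.31e-05 log2 units (MSE minus normal), which centring removes from every gene, whereas the SD of Nsdhl over the mice was 3.57e-06. Nsdhl had 1 probe set, so no second one could be set beside it.

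Sc5d, the desaturase that introduces the double bond at carbon 5, and Tm7sf2, a sterol reductase acting at carbon 14, both averaged higher with MSE. Sc5d z values with MSE were -0.386 at the lowest, 0.241 at the median and 1.76 at the highest, against -2.29, -0.047 and 0.534 on the normal diet. The medians were close and the groups overlapped; normal replicates 1, 2 and 7, at -1.49, -2.29 and -1.09, were below every MSE mouse, and MSE replicates 1 and 6, at 1.76 and 1.53, above every normal mouse. The difference was 1.10 SD (limma unadjusted p = 0.0396, Benjamini-Hochberg adjusted p = 0.723, exact permutation p = 0.0502), and 0.94 SD without MSE replicate 1 (unadjusted p = 0.0816). Its other 2 probe sets also averaged higher with MSE, by 0.46 and 0.81 SD.

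Tm7sf2 z values with MSE were -0.484 at the lowest, 0.449 at the median and 1.51 at the highest, against -2.10, -0.590 and 1.20 on the normal diet. The MSE mouse was the higher one in 51 of 64 pairs, although normal replicate 8 lay above 6 of the 8 MSE mice. The difference was 1.05 SD (limma unadjusted p = 0.0486, Benjamini-Hochberg adjusted p = 0.741, exact permutation p = 0.0556). For both Sc5d and Tm7sf2 the limma and exact p lay on opposite sides of 0.05. With array weights or centring the limma unadjusted p was over 0.05 for both (0.0640 and 0.0743 for Sc5d, 0.0735 and 0.0587 for Tm7sf2), and with the mean of all probe sets it was 0.0726 for Sc5d. After quantile normalization the sign turned for both, to -0.0588 SD for Sc5d and -0.17 SD for Tm7sf2.

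**Figure D2:**
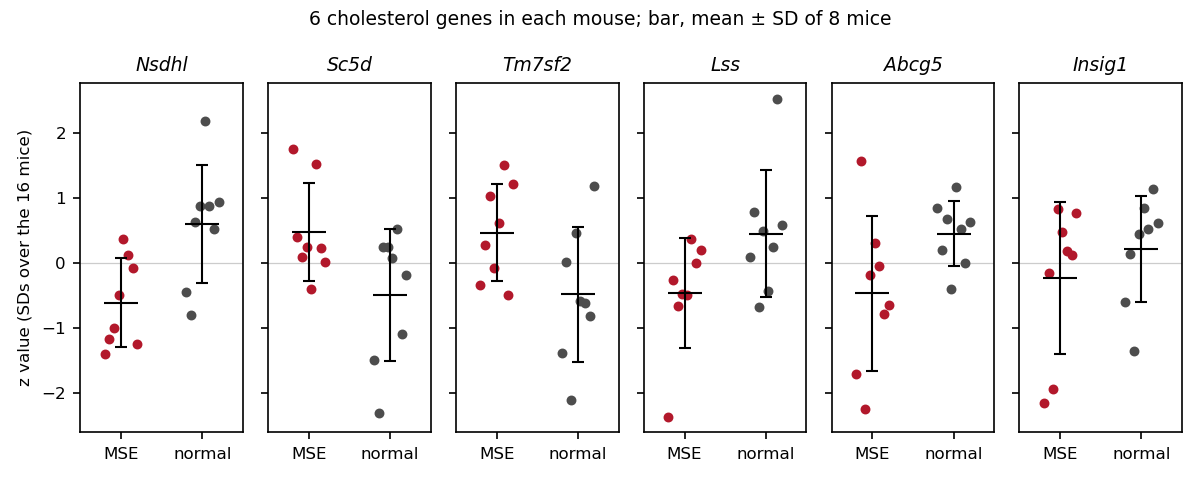
The plot of single mice gives the z value (SDs over the 16 mice) of 6 genes in each MSE mouse, left, and each normal-diet mouse, right, with bars at the mean ± SD of 8 mice. The groups overlap in every panel; in Nsdhl the means are -0.606 with MSE and 0.606 on the normal diet, and in Lss and Insig1 MSE replicate 1 is the lowest point.

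Of the remaining ring enzymes, Fdft1 (squalene synthase) differed by -0.40 SD, or by -0.14 SD without MSE replicate 1. Sqle (squalene epoxidase) differed by -0.76 SD and Lss, which closes the ring to lanosterol, by -0.999 SD. Lss z values with MSE were -2.36 at the lowest, -0.364 at the median and 0.372 at the highest, against -0.673, 0.373 and 2.53 on the normal diet. The 2 extremes were single mice, MSE replicate 1 and normal replicate 7, and without them in turn the difference was -0.84 and -0.85 SD. With all mice the exact permutation p was 0.0499, the limma unadjusted p 0.0584 and the Benjamini-Hochberg adjusted p 0.763. Both other probe sets of Lss averaged lower with MSE as well, by -0.52 and -0.39 SD.

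Msmo1, the oxidase that starts removal of the carbon 4 methyl groups, had z values with MSE of -1.35 at the lowest, -0.340 at the median and 0.457 at the highest, against -1.39, 0.678 and 1.82 on the normal diet. Normal replicates 1 and 3, at -1.29 and -1.39, lay beside the lowest MSE mouse, and 5 of the 8 normal mice lay above every MSE mouse. The difference was -0.87 SD (limma unadjusted p = 0.0938, Benjamini-Hochberg adjusted p = 0.803). Cyp51, the demethylase of lanosterol, differed by 0.16 SD, Hsd17b7, the keto reductase that acts after Nsdhl, by 0.01 SD and Dhcr7, the last reductase of one branch, by -0.10 SD. Ebp, the sterol isomerase, differed by 0.34 SD with all mice, and by 0.95 SD without MSE replicate 1, its lowest mouse at -2.36 (limma unadjusted p = 0.0821). The 3 carbon 4 enzymes thus gave differences of -0.87, -1.50 and 0.01 SD. However, the other probe sets of Hsd17b7 all averaged higher with MSE, by 0.38, 0.64 and 1.25 SD. Their exact permutation p-values were 0.455, 0.217 and 0.0270, and their r with the first was 0.87, 0.89 and 0.14. Those of Cyp51 differed by 0.56 and -0.45 SD. Taken as the mean z of all 17 synthesis enzymes, MSE mice averaged -0.0357 ± 0.279 and normal-diet mice 0.0357 ± 0.464 (SD, n = 8 each), and replicate 1 was the lowest mouse of each diet.

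Promoter sequence of 24 of the 31 genes was matched by symbol in RefSeq (GRCm38.p6) and read over the 250 bases before each start. The CCAAT box, letters CCAAT or ATTGG on the opposite strand, is the binding letters of NF-Y, a known partner of SREBPs. It was present before 14 of the 14 synthesis enzymes with a window and 20 of the 24 genes (83.3%), against 39.4% of the 14453 measured genes with a window. The GC box GGGCGG, read on both strands as CCGCCC, was present before 13 of the 14 enzymes (92.9%) and 53.4% of the measured genes. The windows below belong to the genes on which the results turn: the 3 past the unadjusted threshold, Lss, and Cyp51, Msmo1 and Insig1 of the pairs that moved together between mice; no window of Fdps is shown. Each runs in the direction of the gene, with the CCAAT box in capitals.
Nsdhl, chrX:72918489-72918517, plus strand: aagactagcctcATTGGgcaaaatcatgc
Sc5d, chr9:42264308-42264336, minus strand: cgccggctgctgATTGGccggctgcctgc
Tm7sf2, chr19:6067881-6067909, minus strand: ctcccagcgctgATTGGctactgtgctgg
Lss, chr10:76531531-76531559, plus strand: ggtgatgctctgATTGGccgagctcgcat
Cyp51, chr5:4104710-4104738, minus strand: cgctgtccgccaCCAATctggtcctgaga
Msmo1, chr8:64733617-64733645, minus strand: gagtggggcggaCCAATtacgacaggcga
Insig1, chr5:28071184-28071212, plus strand: cgccctcctcccATTGGctccggcggcct
The box of Nsdhl, which averaged lower with MSE, and those of Sc5d and Tm7sf2, which averaged higher, lay 20 to 16, 24 to 20 and 47 to 43 bases before the start, all in the ATTGG orientation. Each box shown is the one nearest the start, and Nsdhl and Msmo1 have others farther from it. Since 14 of the 14 enzymes with a window have the box, its presence cannot separate them by direction. Any part of the box in these differences was not tested.

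The sterol regulatory element, the letters SREBPs bind, was searched on both strands as TCACNCCAC, N being any base. It was found before 1 of the 24 genes, Hmgcs1, and before 1.27% of the measured genes with a window. The Hmgcs1 element lies 137 to 129 bases before the start and stands in capitals in this window.
Hmgcs1, chr13:119690199-119690237, plus strand: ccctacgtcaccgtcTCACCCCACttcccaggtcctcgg
Variants of the element with other letters, or farther from the start, were not searched.

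The sterol carriers differed little between the diets. Stard4, a cytosolic carrier switched on by SREBP-2, differed by 0.18 SD, and Npc1, the membrane protein that exports cholesterol from lysosomes, by -0.13 SD. Npc2, its soluble partner, differed by 0.65 SD (limma unadjusted p = 0.209, Benjamini-Hochberg adjusted p = 0.881). Lcat, secreted by liver to esterify cholesterol on plasma lipoproteins, differed by 0.12 SD, but a single mouse set that sign: normal replicate 1 lay at -3.41, and without it the difference was -0.85 SD. With all mice, the MSE mouse was the lower one in 42 of 64 Lcat pairs although the mean was higher.

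Abca1, which loads cholesterol onto apolipoprotein A-I, differed by -0.11 SD, or by -0.47 SD without MSE replicate 1, and Abcg1, which exports it to larger particles, by 0.18 SD. The direction of Abca1 was not settled between its probe sets, since the other 2 differed by 0.40 and 0.79 SD. Abcg5 and Abcg8 encode the partner subunits of the transporter that secretes sterols into bile. Abcg5 z values with MSE were -2.24 at the lowest, -0.406 at the median and 1.58 at the highest, against -0.400, 0.589 and 1.17 on the normal diet. The MSE group was the wider one and enclosed the whole normal group, with the highest mouse (replicate 2) and the 2 lowest (replicates 1 and 3) all on MSE. The difference was -1.01 SD (limma unadjusted p = 0.0556, Benjamini-Hochberg adjusted p = 0.755, exact permutation p = 0.0632), -0.85 SD without MSE replicate 1 and -1.67 SD without MSE replicate 2 (limma unadjusted p = 0.00521). Abcg8 differed by -0.56 SD, and by 0.15 and 0.87 SD after centring and quantile normalization.

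Abcg5 and Abcg8 start back to back on chromosome 17, Abcg5 on the minus strand and Abcg8 on the plus strand, with 109 bases between their starts. These bases are shown on the plus strand, with the GATA element in capitals (GATAA, read here on its opposite strand as TTATC), which occurs at 2 places; GATA factors are known regulators of this shared promoter.
Abcg5 to Abcg8, chr17:84683012-84683120, plus strand: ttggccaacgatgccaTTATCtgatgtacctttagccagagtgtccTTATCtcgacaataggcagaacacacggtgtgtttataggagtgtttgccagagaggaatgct
The GATA element was chosen after the sequence was read; it was present before 5 of the 24 genes (20.8%) and 20.3% of the measured genes, and no CCAAT or GC box lies between these starts. Across mice, with diet means removed, Abcg5 and Abcg8 moved together (r = 0.77). Over the 842 pairs of genes that start back to back within 1000 bases, the median r was 0.0910, and 1.90% reached 0.7. Of the 5 other members with such a neighbour, Npc2 had r = 0.63 with Isca2, Mvk 0.57 with Mmab, Nsdhl 0.47 with Cetn2, Dhcr7 0.43 with Nadsyn1 and Hsd17b7 0.0348 with 3110045C21Rik.

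The uptake receptors Scarb1, the HDL receptor, and Lrp1, a receptor for remnant particles, differed by 0.61 and -0.13 SD. All 3 probe sets of Scarb1 averaged higher with MSE, between 0.61 and 0.81 SD, but with exact permutation p-values of 0.129 to 0.242. The second probe set of Lrp1 pointed the other way, at 1.05 SD. Of the 8 hepatocyte markers, 3 averaged higher and 5 lower with MSE (median -0.342 SD), and 0 were called by limma after Benjamini-Hochberg adjustment. Of the markers of other liver cells, 0 were called in the same way. Higher means with MSE were found in 0 of 11 macrophage and Kupffer cell markers (median -0.395 SD; mean z from -1.19 to 0.897 in MSE mice and from -0.992 to 1.19 in normal-diet mice) and 0 of 4 neutrophil markers (median -0.656 SD). They were found in 8 of 8 stellate cell markers, 5 of 5 of T and NK cells, 6 of 8 of sinusoidal endothelium, 4 of 5 of bile duct and 2 of 4 of B and plasma cells. The smallest unadjusted limma p among them, 0.00228, was that of the endothelial Kdr, at 1.80 SD (Benjamini-Hochberg adjusted p = 0.488). Of the 8 endothelial markers, 2 were higher and 1 lower at an unadjusted limma p under 0.05, and their differences ran from -1.12 to 1.80 SD. That threshold was also passed by 1 higher marker each of T and NK cells, B and plasma cells and bile duct, against 6.66% of all genes. Some of these markers had mean levels below the array medians and others above them. Whether the low ones stand for detected transcripts was not tested. The part of such cells in the values of Abca1, Abcg1, Npc2 and Lrp1, which they also express, was not tested either.

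Of 42 further genes of the pathway, 35 were measured, 12 with a higher and 23 with a lower mean with MSE (median -0.188 SD). This is 34.3% higher, against 48.3% of all genes, and the gap between these shares was not tested. An unadjusted limma p under 0.05 was found for 3 of the 35, against 6.66% of all genes, and 0 were called by limma after Benjamini-Hochberg adjustment. Of 9 measured genes of SREBP processing and sterol-regulated degradation, 2 were higher and 7 lower. Erlin1, which encodes a scaffold of that degradation in the endoplasmic reticulum, was higher by 1.13 SD (limma unadjusted p = 0.0355, Benjamini-Hochberg adjusted p = 0.716). Of 7 isoprenoid branch genes, 6 were lower, among them Ggps1, the geranylgeranyl diphosphate synthase, by -1.41 SD (unadjusted p = 0.0143, adjusted p = 0.629 by the same fit). Of 11 genes of other sterol transport and ester turnover, 4 were higher and 7 lower; Tmem97, a receptor that binds NPC1, was lower by -1.13 SD (unadjusted p = 0.0344, adjusted p = 0.716). None of the 3 LXR genes and 5 receptor partners passed the unadjusted threshold. Of the LXR genes 1 was higher and 2 lower, whereas of the receptor partners 4 were higher and 1 lower (median 0.38 SD).

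Some of the genes moved together between mice. For each of the 465 pairs of the 31 genes, deviations from the diet means were correlated over the 16 mice. The mean r was 0.0633 over these pairs and 0.105 over the 136 pairs of synthesis enzymes, against 0.0036 over all pairs of genes. At least 0.7 was reached by 6 of the 465 pairs (1.29%), against 0.502% of all gene pairs. An r of -0.7 or lower was found in 3 of the 465 (0.645%), against 0.384% of all gene pairs. The mean r of the synthesis enzymes lay between 0.0758 and 0.121 with any 1 mouse left out, and at 0.108 without MSE replicate 1. Its jackknife standard error over mice was 0.0565, and whether it exceeds the mean of all gene pairs was not tested.

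**Figure D3:**
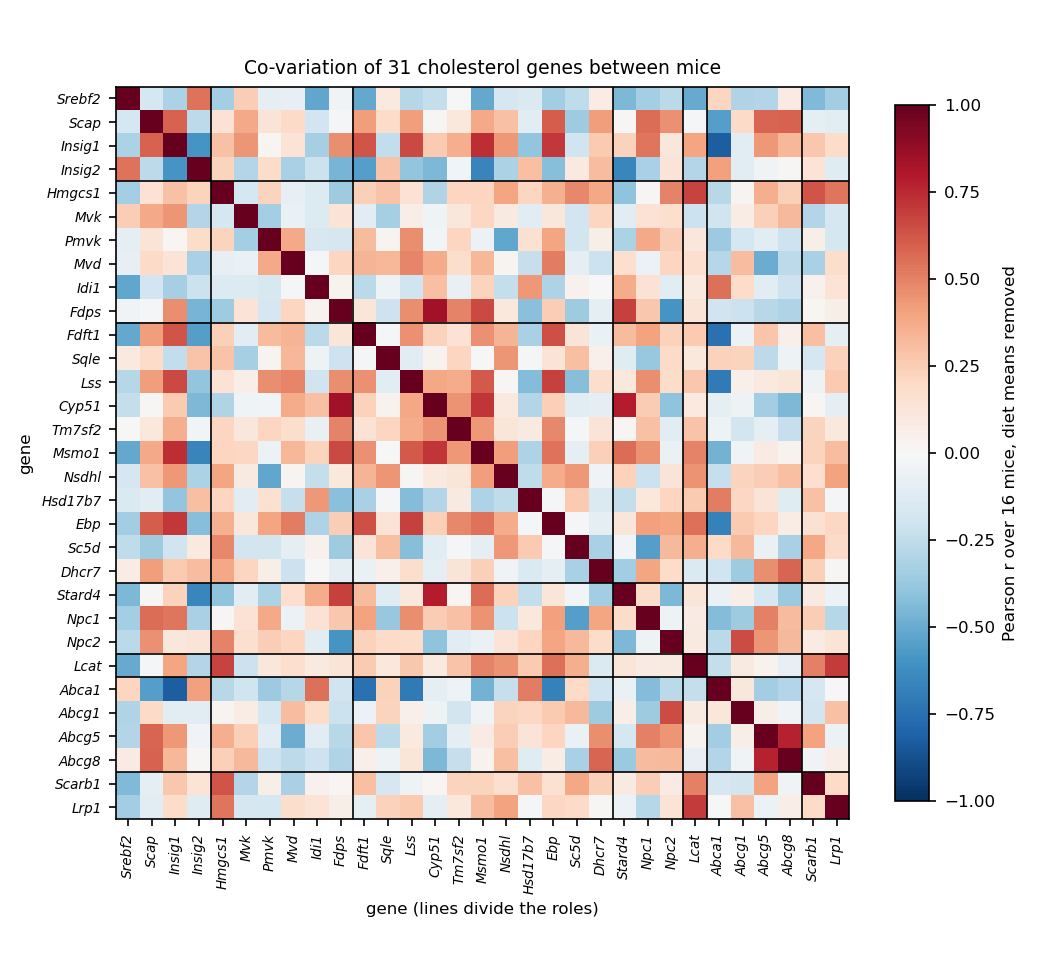
The map of co-variation gives Pearson r over 16 mice, diet means removed, for each pair of the 31 genes, which stand in order of role and are divided by lines. Red blocks join Fdps with Cyp51 (0.84) and Abcg5 with Abcg8 (0.77), and the blue column of Abca1 crosses Insig1 (-0.82).

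The closest pair was Fdps and Cyp51, a prenyl transferase and the demethylase several steps after it. Its r was 0.84 and its rho 0.87 (permutation p = 5e-05 and 3e-05, Benjamini-Hochberg adjusted over 465 pairs 0.0163 and 0.0140). The relation was alike in both diets, with r = 0.85 among MSE mice and 0.85 among normal-diet mice, and it was 0.82 and 0.87 after the 2 mice farthest from the median of either gene were left out. The dimmer probe set of Fdps had r of only 0.0505 with the one used, and those of Cyp51 had 0.38 and 0.71. Whether the relation holds in these other probe sets was not tested. Insig1 and Msmo1 had r = 0.74 and rho 0.70 (permutation p = 7e-05 and 0.00184, adjusted 0.0163 and 0.128), with r = 0.79 in MSE mice and 0.90 in normal-diet mice, so the adjusted p passed for r but not for rho. Without MSE replicate 1, r over the remaining mice of both diets was 0.84 for Fdps and Cyp51 and 0.72 for Insig1 and Msmo1. On both diets, replicates 1 and 3 had the lowest values of their diet for both Insig1 and Msmo1. On the normal diet they lay at -0.60 and -1.35 for Insig1, and at -1.29 and -1.39 for Msmo1. The permutations within diets treat all mice as independent. Deviations shared by same-numbered mice are therefore not allowed for in the p-value of any pair.

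The lowest r of the 465 pairs was that of Insig1 and Abca1, with r = -0.82 and rho -0.77 (permutation p = 0.00041 and 0.00176, adjusted 0.0636 and 0.128). MSE replicates 1 and 3, the lowest for Insig1, were the highest for Abca1, at 2.03 and 1.57; without replicate 1 r was -0.74, and without both of them -0.62. Of the 17 synthesis enzymes, 13 had a negative and 4 a positive r with Abca1, between -0.74 for Fdft1 and 0.55 for Idi1. Abcg5 and Abcg8 had r = 0.77 and rho 0.83 (permutation p = 0.00198 and 0.00049, adjusted 0.102 and 0.0760), with r = 0.82 in MSE mice and 0.57 in normal-diet mice. Insig1 and Insig2, the paired sterol sensors, had r = -0.59 (adjusted permutation p = 0.216).

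**Figure D4:**
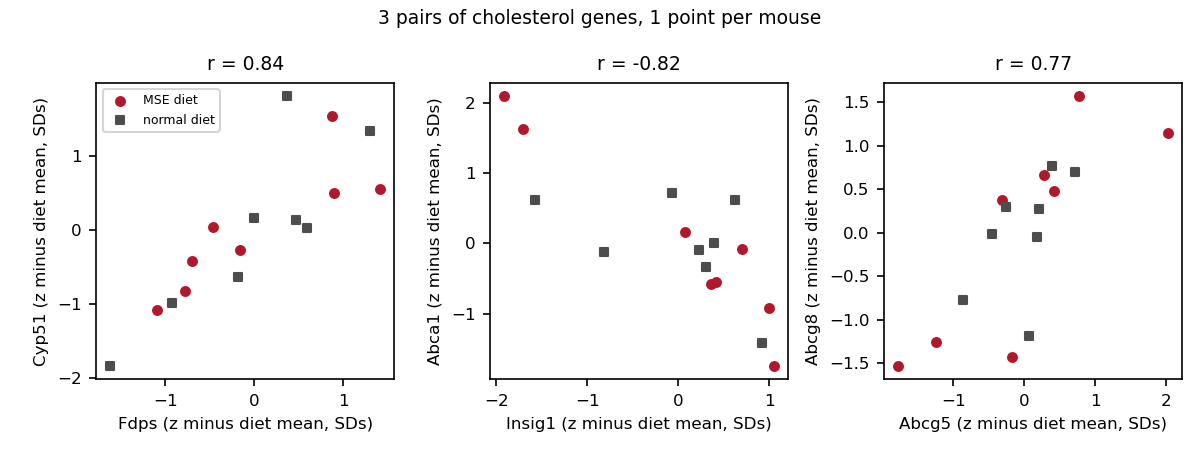
The scatter plots set z values minus the diet mean (SDs) of 3 gene pairs against each other, 1 point per mouse, circles for MSE and squares for normal diet. Both diets follow the same line for Fdps and Cyp51 (r = 0.84), while 2 MSE mice form the upper left end for Insig1 and Abca1 (r = -0.82) and the Abcg5 and Abcg8 panel has r = 0.77.

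Srebf1, the fatty acid counterpart of Srebf2, was set beside these genes after its values had been seen. Across the 16 mice its r was 0.88 with Insig1, 0.71 with Msmo1 and -0.72 with Abca1, while that with Srebf2 was -0.44; these are descriptions, with no test.

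For 20 of the genes, other probe sets gave a check on these deviations. Of 36 such probe sets, 11 (30.6%) had r over 0.7 with the one that stands for the gene, against 9.75% over all genes, and the median r was 0.456 against 0.186. Both other probe sets agreed closely for Stard4, at 0.97 and 0.94, and for Insig2, at 0.93 and 0.86, whereas the other 3 of Fdft1 had r of 0.94, 0.0393 and -0.344. The sign of the diet difference was the same in 24 of the 36, and in every probe set of 10 of the 20 genes.

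For each probe set the authors' deposited table also gives an estimated false discovery rate in either direction. Under 0.05 in the authors' deposited table were 10 of the 31 genes (32.3%), against 5.85% of all genes; 4 of these were higher, where the background is 2.52%, and 6 lower, where it is 3.76%. The authors' deposited table gave Insig1 0.000339, Abcg5 0.000545, Fdft1 0.00241, Msmo1 0.00841, Lcat 0.0242 and Lss 0.0488 for lower with MSE. It gave Idi1 0.000835, Stard4 0.00351, Tm7sf2 0.0107 and Insig2 0.04997 for higher, in the authors' deposited table. All 10 were genes of wide spread: the narrowest of them, Lss, had an SD over mice above that of 90.98% of all genes. When all genes were divided by SD into 10 equal bins, the authors' deposited table had an estimate under 0.05 for 54.3% of the widest bin, 4.12% of the next and 0.055% of the third widest, and for none in the others. Nsdhl, with the smallest limma p of the 31, had 31.8% of genes below it in spread and an estimate of 1.11 in the authors' deposited table. In Lcat and Insig2 the direction in the authors' deposited table was opposite to that of the difference of means, 0.12 and -0.18 SD.

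**Figure D5:**
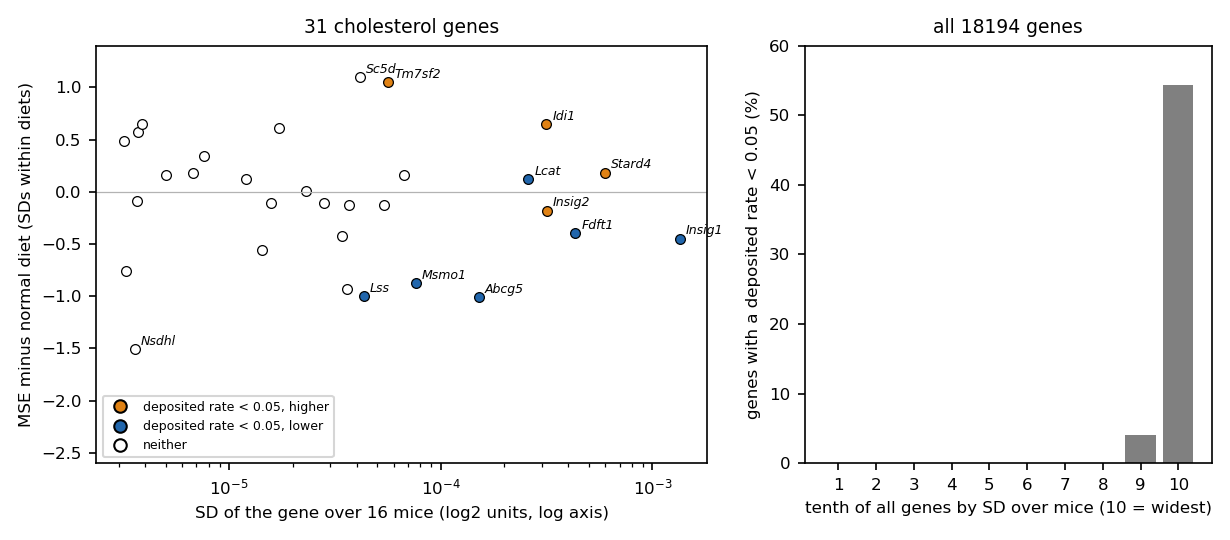
The plot of spread sets, left, the difference MSE minus normal diet (SDs within diets) against the SD over the 16 mice (log2 units, log axis) for the 31 genes, coloured where the authors' deposited estimate is under 0.05; right, bars give the percentage of all genes with such an estimate in each of 10 bins by SD. Coloured points lie at the right end, and 54.3% of the widest bin has such an estimate.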

How the data were processed

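Liver RNA of 16 mice, 1 per 3' oligonucleotide array, was labelled as biotinylated cRNA, per the labels' protocols. The authors deposited normalized log2 values for 45101 probe sets (the base was inferred from their range, 5.05 to 14.6) and a false discovery rate score per direction. Upstream software was R 3.2.2, per the submitters' processing notes; the sources used here do not name the summarization, normalization, batches or the test behind the score. The value tables, deposited in duplicate, differed by 0 within diets, so 1 was used. Array medians lay between 6.0387 and 6.0388. Precision is limited by the number of mice, as arrays hold no counts.

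Gene names were taken from GEO's platform annotation: 34958 probe sets named 1 gene, 932 several (not used) and 9211 none here. Each of 18194 genes was represented by its probe set of highest overall mean. Diets were compared on the log2 values as deposited in R 4.3.3 with limma 3.58.1 (lmFit, eBayes, two-sided, Benjamini-Hochberg over all genes, threshold 0.05), and single genes by an exact permutation test over 12870 regroupings, whose smallest p is 0.000155. Pairs of genes were correlated with 100000 permutations within diets in SciPy 1.17.1. The fit was tested on simulated data. Members, other pathway genes and markers were chosen with earlier results of these data known. All members are named; other pathway genes are named where the unadjusted p was under 0.05. Alternatives changed the scaling, array weights, variance trend, probe set rule, genes tested, replicate block and mice.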

Additional observations from a re-analysis of the deposited data

Results flagged for a closer look

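In 4 of the 62 groups of 8 mice (31 genes in 2 diets), 1 mouse stood far from the rest by its gap to the nearest mouse as a share of the group's range, past the 95% critical value of Dixon's test; chance gives about 1 in 20 groups. For Pmvk on the normal diet, replicate 5 was low with a gap of 0.840 of the range. For Lcat on the normal diet, replicate 1 was low with a gap of 0.782, and the difference without this mouse was -0.85 SD in place of 0.12 SD. For Lss, MSE replicate 1 was low with a gap of 0.625, and normal replicate 7 was high with a gap of 0.545.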

How the results depend on the processing

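No alternative called a cholesterol gene: limma with Benjamini-Hochberg adjustment called 0 of the members throughout, as it did with any 1 mouse left out. All-gene calls numbered 0 with all mice and no covariate, 3 after quantile normalization, 1 among the 9097 genes of higher mean level, 1 with the replicate block, and 0 to 2 with 1 mouse left out. Genes at an unadjusted p under 0.05 numbered 1212, but 230 after centring, 795 among those 9097 genes and 1020 to 1394 with 1 mouse left out. Members at that threshold numbered 3, but 0 after centring, 0 after quantile normalization, 4 with the replicate block (Lss, Msmo1, Nsdhl, Tm7sf2; Sc5d was lost), and 1 to 5 with 1 mouse left out; 1 was reached without normal replicate 7 and 5 without normal replicate 3. Array weights also gave 3, but Fdps, Msmo1 and Nsdhl, and the mean of all probe sets Abcg5, Nsdhl and Tm7sf2. Of the all-gene results at that threshold 38.9% were higher with MSE, but 68.3% after centring, 53.2% after quantile normalization and 48.9% after scaling genes to SD 1. Deviations of same-numbered mice correlated at -0.0261 to 0.221, and 5 of 8 MSE mice, not all, correlated best with their own number. This is a hint of pairing from the data, but the labels give the numbers no shared cage, litter or batch, and they were not used as pairs.

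Signs turned as follows, in SDs. Centring gave Scap 0.41, Sqle 0.34, Nsdhl 0.27, Dhcr7 0.32, Npc1 0.17, Abca1 0.28, Abcg8 0.15 and Lrp1 0.0857. Quantile normalization gave Srebf2 -0.15, Scap 0.89, Mvk -0.39, Mvd -0.90, Cyp51 -0.44, Tm7sf2 -0.17, Nsdhl 0.0707, Ebp -0.19, Sc5d -0.0588, Abcg8 0.87 and Lrp1 0.76; Insig2 had no value there, since it became constant, as did 8.06% of all genes. Array weights gave Scap 0.11, Cyp51 -0.0152, Hsd17b7 -0.0669 and Stard4 -0.0036. The mean of all probe sets gave Srebf2 -0.36, Mvd -0.46, Abca1 0.42 and Lrp1 0.51. The cause was not tested; array medians differed by -1.31e-05 log2 units (MSE minus normal), beside a median SD of 4.98e-06, and the median gap between neighbouring probe-set means was 3.98e-05. Scaling genes to SD 1 and the variance trend turned no sign of the 31. The mean r of synthesis enzymes, 0.105, was 0.574 after centring and 0.207 after quantile normalization, alternatives chosen after seeing the data, and 0.0758 to 0.121 with 1 mouse left out. Centring shifts every gene of an array by the same amount, and array medians spanned 0.000139 log2 units. The mean r over all pairs of genes was not computed in these settings, so 0.574 and 0.207 have no background to be read against.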
